A study of Mus musculus with 10 samples.

Results

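The Hox genes of the Hoxa, Hoxb, Hoxc and Hoxd clusters were followed in bone marrow (BM) of mice transplanted with hematopoietic stem cells (HSCs) from vitamin D-deficient, VD(-), or vitamin D-sufficient, VD(+), donors. A gene was included when a probe set of the array listed that Hox gene and no other, and 37 Hox genes, each with 1 probe set, met this rule among the 19938 genes that could be named in this way. Of these, 10 belonged to the Hoxa cluster and 9 to each of the Hoxb, Hoxc and Hoxd clusters. The question was whether these polycomb targets were expressed at a higher level in VD(-) HSC recipients.

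Donor cells were fetal liver cells, HSCs included, taken in midgestation from embryos of dams on a vitamin D-deficient or a vitamin D-sufficient diet, and given, according to the methods, as mixed male and female pools. All recipients were C57BL/6 mice, 8 weeks old at transplantation, of both sexes and vitamin D-sufficient, and all had been lethally irradiated, so that by design the groups differed in the exposure of the donor. Recipient BM was hybridized to 10 arrays, of which 5 belonged to either group, 3 of them from single samples and 2 from pools. It is not stated if mice measured singly also entered the pools, so each p-value measures only how far these arrays scatter, which may in part be technical. One label names BM macrophages in place of BM, and markers of neutrophils, erythroid cells and B cells were all present, with mean log2 values over the marker list between 11.5 and 11.9 for neutrophils, between 9.34 and 9.61 for erythroid cells and between 6.68 and 7.57 for B cells. The nonhematopoietic cells of the marrow remain those of the recipient after such a transplant, and irradiation leaves some recipient blood cells. In whole marrow, fewer cells of a type and less RNA per cell cannot be told apart.

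Hox genes encode homeodomain transcription factors that give the embryo its pattern along the head to tail axis, and genes of the same number in different clusters, called paralogs, derive from a common ancestor. They are the textbook targets of the polycomb repressive complexes. PRC2, with Ezh2 or Ezh1 as its enzyme and Jarid2 as a partner protein, methylates histone H3 at silent Hox clusters, PRC1 compacts the marked chromatin, and the MLL (trithorax) complexes keep active Hox genes on. In blood formation, genes of the Hoxa and Hoxb clusters are used by stem and progenitor cells and are switched off as cells mature, whereas most Hoxc and Hoxd genes are used in the trunk, limb and other tissues of mesenchymal origin.

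Polycomb complexes are recruited to promoters rich in CpG dinucleotides, and the sequences of the paralogs Hoxd9 and Hoxa9 are given because Hoxd9 is the 1 Hox gene whose groups did not overlap and Hoxa9 is its counterpart in progenitor cells. RefSeq promoter windows (build GRCm38.p6, from 250 bases before to 50 bases after the start of a transcript) could be matched for 21 of the 37 Hox genes, with 23 windows in all. Capitals mark each CpG. The Hoxd9 window lies at chr2:74697513-74697812 on the + strand and holds 20 CpG, and the Hoxa9 window lies at chr6:52227321-52227620 on the - strand and holds 4.
Hoxd9: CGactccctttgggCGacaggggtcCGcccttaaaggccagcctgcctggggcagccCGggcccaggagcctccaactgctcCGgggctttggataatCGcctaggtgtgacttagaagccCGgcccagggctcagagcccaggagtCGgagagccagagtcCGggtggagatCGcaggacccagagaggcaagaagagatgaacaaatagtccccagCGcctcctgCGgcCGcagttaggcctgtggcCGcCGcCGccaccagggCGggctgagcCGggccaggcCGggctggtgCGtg
Hoxa9: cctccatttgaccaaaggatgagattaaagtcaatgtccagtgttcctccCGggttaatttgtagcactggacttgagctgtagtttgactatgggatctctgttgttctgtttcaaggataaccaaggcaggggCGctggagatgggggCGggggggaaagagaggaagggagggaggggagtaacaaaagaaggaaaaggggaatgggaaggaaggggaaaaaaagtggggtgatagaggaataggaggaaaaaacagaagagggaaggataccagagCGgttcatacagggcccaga

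Over the 23 Hox windows the count of CpG ran from 4 to 45 with a median of 15, against a median of 7 over all 32851 mouse windows and of 18 over 44 windows of other polycomb targets. At least 10 CpG were present in 69.6% of the Hox windows, in 86.4% of those of the other polycomb targets and in 43.5% of all windows. The letters TGACAG, bound by Meis proteins, occurred on either strand in 2 Hox windows, those of Hoxa2 and Hoxa3 (8.70%, against 19.2% of all windows). The letters TGATTNAT, bound by Pbx-Hox pairs, occurred on either strand in 2, those of Hoxa2 and Hoxd11 (8.70%, against 3.22%).

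As a group the Hox genes lay around 0 in the comparison of VD(-) with VD(+) HSC recipients. The log2 fold change, VD(-) over VD(+), was above 0 for 19 of the 37 genes (51.4%), against 50.3% of all named genes. The median over the Hox genes was 0.01 on the log2 scale, and over all named genes it was 0.00 (0.00103). Single values ran from -0.15 for Hoxb6 to 0.29 for Hoxd9, and the median size of the difference was 0.07 for the Hox genes and 0.08 for all named genes. The mean log2 value over the 37 genes was 3.67, 3.68, 3.69, 3.70 and 3.73 on the VD(-) arrays in ascending order, and 3.63, 3.66, 3.69, 3.71 and 3.72 on the VD(+) arrays, and the groups overlapped.

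By limma over all 35556 probe sets, 1 Hox gene, Hoxd9, was higher at a nominal p under 0.05, where 3.85% of all probe sets were, so that 1 of 37 is a smaller share than the background. No Hox gene was lower at that threshold, where 3.23% of all probe sets were, and in either direction the share was 7.09%. After Benjamini-Hochberg adjustment 0 Hox genes passed, against 0.118% of all probe sets. The test named in the study's methods, run on the same values, also gave 1 gene at a nominal p under 0.05 and 0 after adjustment. Hoxd9 alone met the study's rule for a higher gene (a ratio above a set threshold with a nominal p under 0.05), which 2.64% of all probe sets met, and Hoxd9 alone had groups that did not overlap with VD(-) higher, as 0.911% of all probe sets did. The count at a nominal p was 2 without VD(+) replicate 2, when Hoxa2 was added, 2 without VD(+) replicate 3, when Hoxd12 was added, and 3 without VD(+) pool 1, when Hoxa10 and Hoxc4 were added.

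The intervals give the precision of each measured difference. The upper end of the 95% interval of the log2 fold change lay under 0.5 for 36 of the 37 Hox genes and was highest for Hoxa10, at 0.52. For 18 genes it lay under 0.25, the log2 value of the study's ratio threshold, so that for the other 19 a difference of that size lies within the interval. A dim probe set compresses a fold change, so these ends are no limit on the true change of the dim Hox genes. The lowest lower end was -0.42, for Hoxd10.

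**Figure D1:**
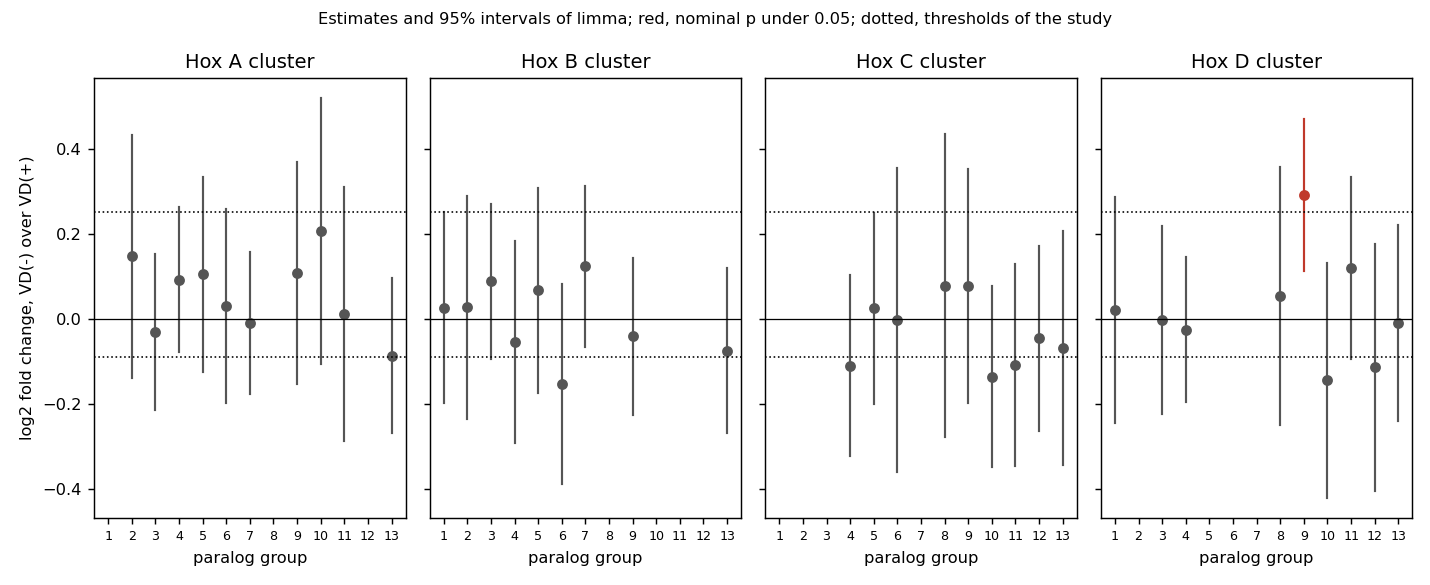
Log2 fold change, VD(-) over VD(+), of each of the 37 Hox genes with its 95% interval from limma, by cluster and paralog group. Hoxd9, in red, is the 1 gene with an interval above 0, and the dotted lines are the study's ratio thresholds for higher and lower genes, at 0.25 and -0.09 on the log2 scale.

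The median log2 fold change by cluster ran from -0.05 for Hoxc to 0.06 for Hoxa. In the Hoxa cluster 7 of 10 genes were above 0 and the median log2 fold change was 0.06. Array means over the Hoxa genes ran from 3.91 to 4.003 in VD(-) and from 3.85 to 3.95 in VD(+) HSC recipients, a difference of 0.06 beside an SD within groups of 0.04, and the groups overlapped. The median was 0.03 over the Hoxb genes, with 5 of 9 above 0, -0.05 over the Hoxc genes, with 3 of 9 above 0, and -0.00259 over the Hoxd genes, with 4 of 9 above 0. Leaving out 1 array at a time moved these medians between 0.03 (without VD(+) replicate 1) and 0.09 for Hoxa, between -0.06 (without VD(+) replicate 3) and 0.06 for Hoxb, between -0.09 and 0.03 for Hoxc and between -0.03 and 0.04 for Hoxd. By position along the clusters, the median was 0.02 over the 11 genes of paralog groups 1 to 4, 0.04 over the 10 genes of groups 5 to 8 and -0.04 over the 16 genes of groups 9 to 13.

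**Figure D2:**
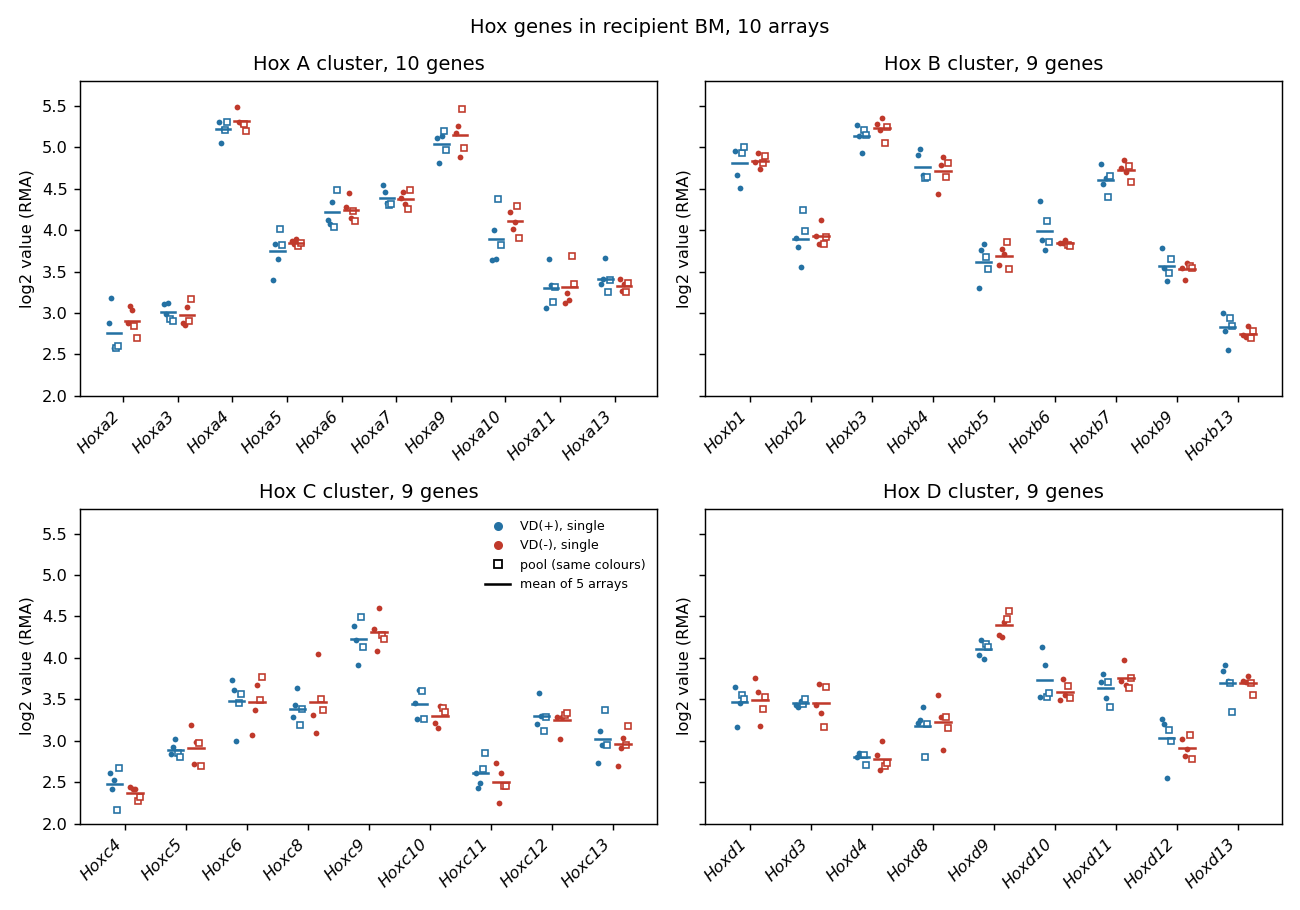
Log2 values (RMA) of the 37 Hox genes on the 10 arrays, with filled circles for single samples, open squares for pools and a bar for the mean of 5 arrays. VD(-) and VD(+) values overlap for every Hox gene other than Hoxd9.

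Hoxd9, a gene of the lumbar axial skeleton and the forelimb, was the Hox gene with the largest difference, which by itself says nothing of the Hox genes as a group. Its log2 values on the VD(-) arrays were 4.28, 4.26 and 4.44 for the single samples and 4.46 and 4.57 for the pools. On the VD(+) arrays they were 4.04, 4.22 and 3.98 for the single samples and 4.17 and 4.14 for the pools. Every VD(-) array was above every VD(+) array, although the lowest VD(-) value, 4.26, and the highest VD(+) value, 4.22, lay close together. The means were 4.40 ± 0.13 and 4.11 ± 0.10 (SD, n = 5 each).

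The log2 fold change of Hoxd9 was 0.29 ± 0.08 (SE), a ratio of 1.22 with a 95% interval from 1.08 to 1.39. It was at a nominal p under 0.05 by limma, and the two-sided exact permutation p was 0.00794, the smallest that 5 arrays against 5 can give. Adjusted over all probe sets by limma and Benjamini-Hochberg, p was 0.451. Among the single samples alone, 3 a group, the log2 fold change was 0.245, no longer at a nominal p under 0.05 by limma. Among the pools alone, 2 a group, it was 0.36 and under that threshold, in a fit added after the data were seen.

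The genes beside Hoxd9 in its cluster did not pass the test. Hoxd8, its neighbour on the 3′ side, had a log2 fold change of 0.05 ± 0.14 (SE), with values from 2.89 to 3.55 in VD(-) and from 2.80 to 3.40 in VD(+) HSC recipients. Hoxd10, its neighbour on the 5′ side and a gene of the limb and spinal motor neurons, had -0.14 ± 0.13. Both genes overlapped between the groups throughout. The paralogs of Hoxd9 had log2 fold changes of 0.11 ± 0.12 for Hoxa9, -0.04 ± 0.08 for Hoxb9 and 0.08 ± 0.12 for Hoxc9, and all of these overlapped as well.

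**Figure D3:**
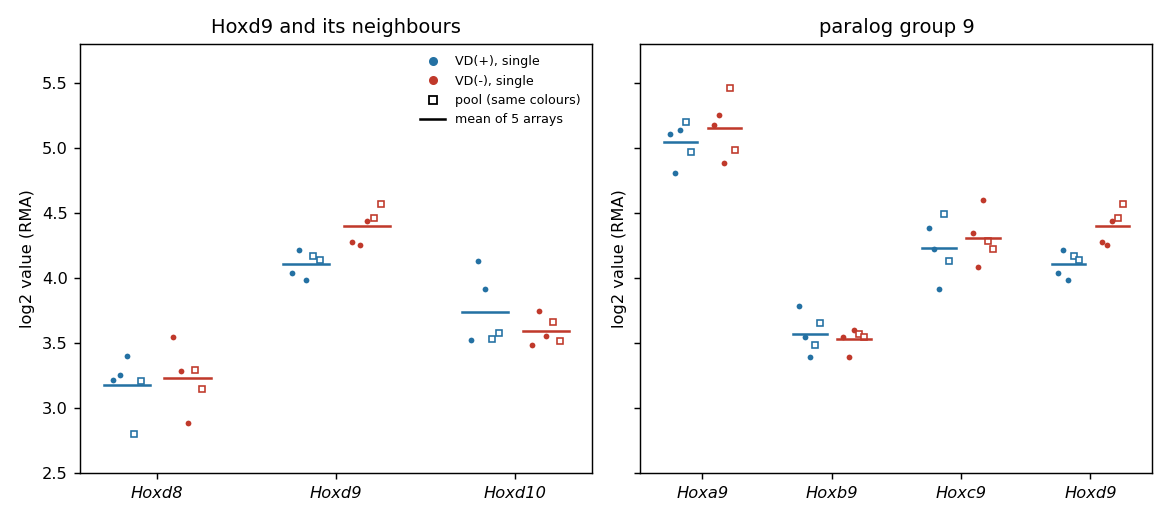
Log2 values (RMA) of Hoxd9 on the 10 arrays beside its cluster neighbours Hoxd8 and Hoxd10 (left) and beside its paralogs Hoxa9, Hoxb9 and Hoxc9 (right). Circles are single samples, squares are pools and bars are means of 5 arrays. Only Hoxd9 has VD(-) values, from 4.26 to 4.57, that all lie above its VD(+) values, from 3.98 to 4.22.

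Signal of Y-linked genes was unevenly spread over the arrays. It was present on 3 of the 5 VD(-) arrays (replicate 1 and both pools, with a mean log2 value of Kdm5d, Eif2s3y and Uty between 5.31 and 6.80) and at background on the other 7 (between 2.25 and 2.56), all 5 VD(+) arrays included. This goes against the mixed male and female donor pools that the methods describe, and the reason was not tested. With this signal minus Xist as a covariate the log2 fold change of Hoxd9 was 0.28, still at a nominal p under 0.05 by limma. Without the 3 arrays it was 0.237, above that threshold, and 0 Hox genes were then at a nominal p under 0.05, with 2 VD(-) arrays left.

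None of the Hox genes known from stem and progenitor cells passed the test. Of 9 such genes, 6 were above 0, the median log2 fold change was 0.07, and 0 were at a nominal p under 0.05 in either direction by limma. Hoxa9, which sustains progenitor self-renewal and drives leukemia together with Meis1, had log2 values of 5.17, 5.26, 4.88, 5.46 and 4.99 on the VD(-) arrays (replicates 1 to 3, then pools 1 and 2). On the VD(+) arrays in the same order they were 5.11, 4.81, 5.14, 5.20 and 4.97. The means were 5.15 ± 0.23 and 5.04 ± 0.16 (SD, n = 5 each), a difference within the spread of either group (exact permutation p = 0.405).

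Hoxa10, a regulator of myeloid progenitors, had the largest difference of the stem and progenitor Hox genes. Its values were 4.22, 4.01, 4.09, 4.30 and 3.91 on the VD(-) arrays, and 3.64, 3.996, 3.65, 4.38 and 3.82 on the VD(+) arrays. The highest value of all was that of VD(+) pool 1, and the log2 fold change was 0.21 ± 0.14 (SE, exact permutation p = 0.214). Without VD(+) pool 1, and among the single samples alone, it was at a nominal p under 0.05. Hoxa5, which takes part in the choice between erythroid and myeloid fate, had a log2 fold change of 0.11 ± 0.10, and Hoxa7, often active with Hoxa9 in leukemia, had -0.00898 ± 0.08.

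Hoxb4, which expands HSCs when overexpressed, overlapped between the groups. Its values were 4.43, 4.79, 4.88, 4.64 and 4.82 on the VD(-) arrays and 4.91, 4.98, 4.66, 4.63 and 4.65 on the VD(+) arrays. The lowest array was a VD(-) one and the highest a VD(+) one, and the log2 fold change was -0.05 ± 0.11. Hoxb3, its neighbour and a gene of the same cells, had 0.09 ± 0.08. Hoxb2 had 0.03 ± 0.12, and Hoxb5, a marker of long-term HSCs in mice, had 0.07 ± 0.11. Hoxb6, a gene of myeloid progenitors, had -0.15 ± 0.11, and here the VD(-) values were tightly grouped (3.81 to 3.88) within a wide VD(+) range (3.76 to 4.36).

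Other Hox genes with the smallest p-values or the highest means in their clusters also overlapped between the groups. Hoxa4 had the highest mean of its cluster and was named by its p-value as well. Hoxb1, Hoxc6 and Hoxd13 came next in mean after Hoxb3, Hoxc9 and Hoxd9 in their clusters. Hoxa2, a gene of the hindbrain and the branchial arches, had a log2 fold change of 0.15 ± 0.13, and Hoxa4, a gene of the neck vertebrae, had 0.09 ± 0.08. Hoxb7 had 0.12 ± 0.09 and Hoxb1, a gene of the hindbrain, had 0.03 ± 0.10. In the Hoxc cluster the values were -0.14 ± 0.10 for Hoxc10, -0.11 ± 0.10 for Hoxc4, -0.11 ± 0.11 for Hoxc11 and -0.00250 ± 0.16 for Hoxc6. In the Hoxd cluster Hoxd11, a gene of the forearm skeleton, had 0.12 ± 0.10, and Hoxd13, a gene of the digits, had -0.00887 ± 0.10. Adjusted p by limma was between 0.805 and 0.999 over the 36 Hox genes other than Hoxd9.

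Most Hox probe sets were dim. Their means over the 10 arrays ran from 2.42 to 5.27 with a median of 3.55, and 4 of the 37 (Hoxa4, Hoxa9, Hoxb1 and Hoxb3) were above the median of all probe set means, 4.74. As a gauge of background, 1015 olfactory receptor genes, which marrow is not known to use, had a median of 2.48 and a 95th percentile of 3.99. Above that percentile were 11 Hox genes, namely Hoxa4, Hoxa6, Hoxa7, Hoxa9, Hoxa10, Hoxb1, Hoxb3, Hoxb4, Hoxb7, Hoxc9 and Hoxd9. The values of the other 26 genes may understate a change. The SD within groups was 0.17 (0.165) as a median over the Hox genes and 0.18 over all probe sets, and 2.95% of the 16225 probe sets with means in the same range were higher in VD(-) at a nominal p under 0.05.

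None of the partner proteins of Hox factors passed the test. Of 9 TALE homeodomain cofactors, 8 were measured, 5 were above 0, the median log2 fold change was 0.02, and 0 were at a nominal p under 0.05 by limma. The smallest p-values belonged to Meis3, with 0.19 ± 0.11 (SE), Pknox1, with 0.11 ± 0.10, and Pknox2, with 0.06 ± 0.09. Meis1, the partner of Hoxa9 in progenitors, had 0.02 ± 0.11.

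Noncoding RNAs lie between the Hox genes, among them the precursors of the miR-10 and miR-196 families. The mature sequences (RefSeq, build GRCm38.p6) are shown because members of a family share their seed, bases 2 to 8, in capitals, although they come from different Hox clusters. The precursors lie in the Hoxb (miR-10a), Hoxd (miR-10b), Hoxb and Hoxc (miR-196a) and Hoxa (miR-196b) clusters.
miR-10a-5p: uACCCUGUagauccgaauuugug
miR-10b-5p: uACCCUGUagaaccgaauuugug
miR-196a-5p: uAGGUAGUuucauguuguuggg
miR-196b-5p: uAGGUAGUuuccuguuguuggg

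Of 15 noncoding RNAs of the clusters, 9 were measured, as precursors and not as mature RNA in the case of the microRNAs. Of these, 3 were above 0 and the median log2 fold change was -0.05. None of the microRNA precursors was at a nominal p under 0.05 by limma. Log2 fold changes were 0.07 ± 0.12 (SE) for Mir10a, 0.09 ± 0.11 for Mir10b, -0.10 ± 0.09 for Mir196a-1, -0.17 ± 0.12 for Mir196a-2 and 0.07 ± 0.11 for Mir196b. The means of these precursors ran from 1.95 (Mir10b) to 3.53 (Mir196b), under the 95th percentile of the olfactory receptor genes, 3.99. Mir10a, Mir10b and Mir196a-1 also lay under the olfactory receptor median of 2.48. At such levels a change may be understated. Mir615, also measured, lay above that 95th percentile, with a mean of 5.10 and a log2 fold change of -0.06 ± 0.09. Hottip is a long noncoding RNA at the 5′ end of the Hoxa cluster that helps recruit MLL complexes to it. It was lower at a nominal p under 0.05 by limma, as were 3.23% of all probe sets. Its means were 2.70 ± 0.10 in VD(-) and 2.90 ± 0.13 in VD(+) HSC recipients (SD, n = 5 each). Its log2 fold change was -0.21 ± 0.08 (exact permutation p = 0.0397, adjusted p = 0.643 by limma), and the groups overlapped at a dim level. When 1 array was left out its log2 fold change ran from -0.24 to -0.16, and its nominal p was above 0.05 without VD(+) replicate 1, VD(+) pool 1, VD(-) replicate 1 or VD(-) replicate 2. Hoxa13, the gene next to Hottip, had a log2 fold change of -0.09 ± 0.08.

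Genes that flank the clusters served as neighbours outside them, and their polycomb state in marrow was not measured. Of 12, 11 were measured, 6 were above 0 and the median log2 fold change was 0.03. Calcoco1, beside the Hoxc cluster, was lower, with -0.26 ± 0.08 (SE, exact permutation p = 0.0159), and Ttll6, beside the Hoxb cluster, with -0.24 ± 0.09 (exact permutation p = 0.0238). Ttll6 was dim, with a mean of 3.19, under the 95th percentile of the olfactory receptor genes, 3.99. Mtx2, beside the Hoxd cluster, had 0.22 ± 0.11 (exact permutation p = 0.103). Calcoco1 and Ttll6 were lower at a nominal p under 0.05 by limma, as were 3.23% of all probe sets, and none of the 3 passed adjustment.

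Among the regulators of Hox genes, no PRC2 gene was at a nominal p under 0.05 by limma. All 11 were measured, 6 were above 0, and the median log2 fold change was 0.01. Ezh2, the enzyme, had 0.04 ± 0.07 (SE) and Jarid2 had -0.08 ± 0.06 (exact permutation p = 0.0159). The smallest p-values by limma were those of Mtf2, with 0.14 ± 0.07 (exact permutation p = 0.0238), Eed, with 0.12 ± 0.07 (exact permutation p = 0.0476), and Ezh1, with -0.14 ± 0.09 (exact permutation p = 0.135). For Jarid2, Mtf2 and Eed the exact permutation test, which is not adjusted for the number of genes and does not share the spread of other probe sets, thus lay under 0.05 while limma did not, and their groups overlapped.

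Of 16 PRC1 genes, 14 were measured, 8 were above 0, and the median was 0.02. By limma 1 was higher at a nominal p under 0.05, as were 3.85% of all probe sets. Pcgf1, a subunit of a variant PRC1, was higher by 0.34 ± 0.11 (SE, exact permutation p = 0.0159, adjusted p = 0.542 by limma). Without the 3 VD(-) arrays with Y-linked signal its log2 fold change was 0.18 and no longer at a nominal p under 0.05 by limma. Cbx7 and Rnf2, with the next smallest p-values, had -0.17 ± 0.13 and -0.11 ± 0.09.

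The enzymes that remove the PRC2 mark are encoded by Kdm6a and Kdm6b. Kdm6a had log2 values of 7.09, 7.63, 7.87, 7.22 and 7.58 on the VD(-) arrays and of 7.71, 7.81, 7.89, 7.99 and 7.91 on the VD(+) arrays. It was lower, with -0.39 ± 0.14 (SE, exact permutation p = 0.0238, adjusted p = 0.608 by limma). The gene is X-linked and escapes X inactivation, and its 3 lowest values were those of the 3 arrays with Y-linked signal. With that signal minus Xist as a covariate the log2 fold change was -0.08, and without those arrays it was -0.11. Neither was at a nominal p under 0.05 by limma. Only VD(-) arrays carried the Y-linked signal, so that signal cannot be fully told apart from the group, and the cause was not tested. Kdm6b had -0.06 ± 0.14.

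All 17 genes of the MLL complexes and other Hox activators were measured, with 10 above 0 and a median of 0.03. By limma 1 was higher at a nominal p under 0.05, as were 3.85% of all probe sets. Mllt1, an elongation factor and MLL fusion partner, was higher, with VD(-) values from 5.94 to 6.08 above VD(+) values from 5.61 to 5.91. Its log2 fold change was 0.19 ± 0.07 (SE, exact permutation p = 0.00794, adjusted p = 0.629 by limma). The nominal p by limma was above 0.05 without VD(+) replicate 3 or VD(-) replicate 1, with log2 fold changes of 0.15 and 0.17. Rbbp5 had 0.18 ± 0.09 and Men1, the gene of menin, had -0.11 ± 0.08.

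Other developmental regulators that polycomb silences in blood gave a comparison outside the Hox clusters. Of 54 such genes, 50 were measured, 23 were above 0 (46.0%), and the median log2 fold change was -0.02. At a nominal p under 0.05 by limma were 1 higher and 1 lower gene, where 3.85% of all probe sets were higher and 3.23% lower. These were Irx3, with 0.25 ± 0.11 (SE, exact permutation p = 0.0714), and Tbx3, with -0.27 ± 0.11 (exact permutation p = 0.0476). Without VD(-) pool 2 the log2 fold change of Irx3 was 0.17 (0.175), and without VD(+) replicate 1 that of Tbx3 was -0.20, and neither was then at a nominal p under 0.05. Irx3 also lost it without VD(+) replicates 2 or 3, either VD(+) pool or VD(-) replicates 1 or 3, and Tbx3 without VD(+) replicate 2, VD(+) pool 1 or VD(-) replicates 2 or 3. Msx2 had -0.15 ± 0.08. Array means over the 50 genes ran from 3.77 to 3.91 in both groups.

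**Figure D4:**
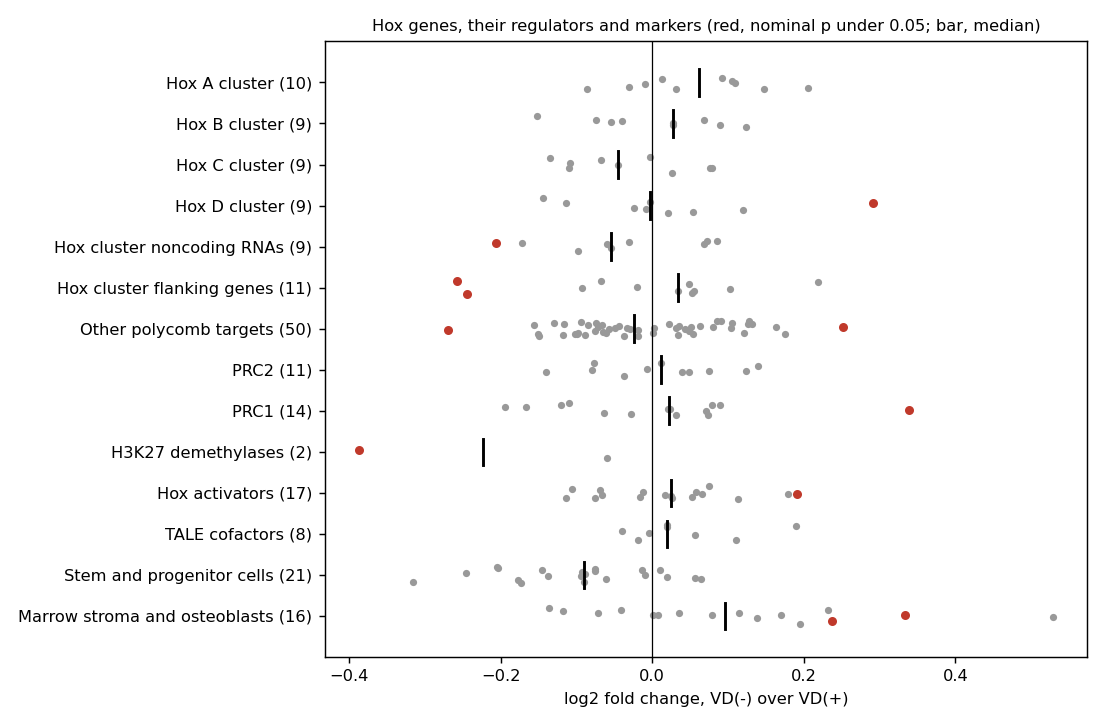
Log2 fold change, VD(-) over VD(+), of the genes of each Hox cluster and of the lists of regulators, other polycomb targets, neighbours and markers, with the number measured in brackets. Points in red are at a nominal p under 0.05 and black bars are medians, which lie at 0.06, 0.03, -0.05 and -0.00259 for the Hoxa, Hoxb, Hoxc and Hoxd clusters.

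The cell types that use Hox genes were checked by their markers. Stem and progenitor markers (21 of 23 measured) were above 0 in 4 genes, with a median log2 fold change of -0.09 and 0 at a nominal p under 0.05 by limma, and their mean level was 5.93 to 6.03 in VD(-) and 5.96 to 6.14 in VD(+) HSC recipients. The smallest p-values belonged to Tie1, with -0.20 ± 0.10 (SE, exact permutation p = 0.0476), Flt3, with -0.32 ± 0.15, and Mycn, with -0.25 ± 0.13. Markers of marrow stroma and osteoblasts (16 of 18 measured) were above 0 in 12 genes, with a median of 0.10 and mean levels of 5.96 to 6.43 and 5.93 to 6.26. Lepr, with 0.33 ± 0.13, and Cxcl12, with 0.24 ± 0.10, both of the stromal niche of HSCs, were at a nominal p under 0.05 by limma, which each lost without VD(+) replicate 1 (log2 fold changes of 0.24 and 0.23) or replicate 2. Lepr also lost it without either VD(-) pool, and Cxcl12 without VD(+) pool 1, VD(-) replicates 1 or 3 or VD(-) pool 1. Adipoq had 0.53 ± 0.29. Lepr and Cxcl12 were the 2 stromal markers higher at a nominal p under 0.05 by limma, as were 3.85% of all probe sets.

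Markers of monocytes and macrophages were the set whose array means did not overlap (9 of 10 measured, 9 above 0). These means were 8.00 to 8.20 in VD(-) and 7.48 to 7.81 in VD(+) HSC recipients. By limma 3 of the 9 were higher at a nominal p under 0.05, as were 3.85% of all probe sets. Their median log2 fold change was 0.16, far under that of Cd14, which weighs most in the array means. Array means without Cd14 are not given here. Cd14 was higher by 1.70 ± 0.19 (SE, adjusted p = 0.0109 by limma), Cd68 by 0.27 ± 0.08 and Ccr2 by 0.28 ± 0.13. B cell markers had a median of -0.28, with 3 of 9 lower at a nominal p under 0.05 by limma, as were 3.23% of all probe sets. These were Fcer2a (-0.58 ± 0.08), Ms4a1 (-0.45 ± 0.13) and Pax5 (-0.28 ± 0.12). Ccr2 kept a nominal p under 0.05 without VD(+) replicate 2 or VD(+) pool 1 and lost it without any other single array, and Pax5 kept it without VD(+) replicate 2, VD(-) replicate 1 or VD(-) pool 1 and lost it without any other. The part of these cell types in the value of Hoxd9 was not tested.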

How the data were processed

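RNA of recipient BM was measured on 10 whole-transcript arrays, and groups were taken from the sample labels. The deposited values are log2 values per probe set, which the authors made in Partek Genomics Suite 6.6 according to the methods, with RMA named in the submitters' processing notes. RMA brings all arrays to 1 distribution, so that a change in total RNA is removed. No filter or genome build of the probe sets is given by the sources used here, and the array named in the methods, a miRNA array, differs from the gene-level probe sets of the table. The time of collection is given in more than 1 way and is not stated here. Array medians lay between 4.74 and 4.80. An array has no count depth, and precision is limited by how many arrays there are. Of the deposited columns, 0 were left unused.

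Of 35556 probe sets, 21789 list 1 gene symbol in the platform annotation, and the probe set with the highest mean was kept per gene, which left 19938 genes. All 37 Hox symbols were matched by gene ID to RefSeq. In 1 further probe set Hoxb7 and Hoxb8 are listed together, and it was not used. Fits used limma 3.58.1 in R 4.3.3 (lmFit and eBayes, two-sided) on all probe sets, with Benjamini-Hochberg adjustment over all of them, and exact permutation tests over the 5 arrays of each group. The script was tested on simulated data. Tables were made with Python 3.11.15 and pandas 2.3.3. Alternatives were the t-test of the methods, brighter probe sets alone, cyclic loess, array weights, a trended and robust spread, pools as a covariate, single arrays alone, a replicate block, Y-linked signal minus Xist as a covariate, averaging the probe sets of each gene, and dropping each array in turn. The pools alone, the fit without the VD(-) arrays with Y-linked signal, and the probe sets with 1 gene alone were added after seeing the data.

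Named were Hox genes at a nominal p under 0.05 or with groups that do not overlap, in each cluster the 3 genes with the smallest nominal p and the 2 with the highest mean, the stem and progenitor Hox genes, the 3 smallest nominal p of each other list described, Ezh2 and Jarid2. Neighbours and paralogs of Hoxd9, the genes at 1 left-out array, Hoxa13, Meis1, Kdm6b, the microRNA precursors and the genes above background were named after their values were seen. The members and lists were chosen with earlier results of these data known. Lists of erythroid cells (6 of 8 measured, 4 above 0, median 0.05), neutrophils (10 of 10, 5 above 0, median -0.01) and T and NK cells (7 of 9, 6 above 0, median 0.08) were checked as well.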

Additional observations from a re-analysis of the deposited data

Results flagged for a closer look

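Of 74 groups of 5 values (37 Hox genes in VD(-) and VD(+) HSC recipients), 2 held a value far from the other 4 by Dixon's test (2.70%, where chance gives about 1 in 20). For Hoxb9, a gene of the thoracic skeleton, the VD(-) value of 3.395 lay below the other 4, which ran from 3.55 to 3.60. For Hoxc12, the VD(-) value of 3.02 lay below the other 4, which ran from 3.29 to 3.34. Both low values were those of VD(-) replicate 2. No cause was tested.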

How the results depend on the processing

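Hoxd9 stayed above 0 in every fit that held it, with 0.25 to 0.33 when 1 array was left out and a nominal p under 0.05 in each of these. With the replicate block its value was 0.29, with 1 Hox gene at a nominal p under 0.05, and the block changed no call among the Hox genes, while Hottip and Cxcl12 were then above a nominal p of 0.05. The labels do not say if the numbers pair the arrays. Same-numbered arrays correlated between -0.05 (-0.0522) and 0.06, and 1 of 5 correlated best with its own number. These correlations show no shared variation but cannot tell if the arrays were matched. Hoxd9 fell short of a nominal p of 0.05 among single arrays alone (0.245). There the Hoxa count was 1 (Hoxa10), the Hoxd count 0 and the Hoxa median 0.10 (0.0982). It also fell short without the VD(-) arrays with Y-linked signal (0.237), where all Hox genes and the Hoxd genes gave 0. Among brighter probe sets 4 Hox genes were left, all 4 above 0, with a median of 0.09 (0.0906), a Hoxa median of 0.10 (0.101) and a count of 0. When 1 array was left out, the count at a nominal p under 0.05 ran from 1 to 3 over all Hox genes, from 0 to 1 in Hoxa, from 0 to 1 in Hoxc and from 1 to 2 in Hoxd, and the medians ran from 0.03 (0.0250) to 0.09 (0.0938) in Hoxa and from -0.06 (-0.0578) to 0.06 (0.0567) in Hoxb. The causes were not tested. After adjustment 0 Hox genes passed in each of the 23 alternative fits. Of 818 values of single Hox genes, 91 changed sign, in 26 genes, none of them Hoxd9. The number of arrays and the dim signal of most Hox probe sets limit what could be detected.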
